A study of Mus musculus with 11 samples.

Results

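Complement was read in the mesenchymal cells of the mouse liver through 8 genes: C1ra, C2, C4b, C3, C6, C7, Serping1 and Cd55. They were taken by symbol from the 27998 genes of the droplet (10X Chromium) tables and the 23998 gene symbols of the plate (Smart-seq2) tables, in which all 8 are present. The cells came from adult male mice of the Pdgfrb-BAC-eGFP line (C57BL/6 background), in which green fluorescent protein follows Pdgfrb and so marks mesenchyme, and were sorted as GFP-positive cells without the leucocyte marker CD45 or the endothelial marker CD102. The 5 10X libraries, each a pool of 3 mice, were of uninjured liver by 2 digestions, of liver 72 h after 1 dose of carbon tetrachloride (CCl4), a toxin of the centrilobular hepatocytes, and of liver after 6 weeks of CCl4 by both digestions. Protocol 1 (minced tissue digested outside the animal, the labels' PF) yielded fibroblasts and vascular smooth muscle cells, and protocol 2 (retrograde perfusion, the labels' HSC) yielded hepatic stellate cells. On the 6 Smart-seq2 plates there were wells from uninjured mice, from mice 14 days after bile duct ligation (BDL), which blocks bile flow, and from mice after 6 weeks of CCl4, and the unit of replication there was the portion, the wells of 1 mouse label on 1 plate (8 uninjured, 5 BDL and 4 CCl4). The labels do not say whether a mouse lies on more than 1 plate, so the p-values below measure the spread between portions.

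Complement is a cascade of plasma and tissue proteins that tags cells and debris for removal. In the classical pathway the protease C1r activates C1s, which cuts C4 and C2 to form the enzyme that splits C3. Every route converges on C3, and the terminal components from C5 to C9 then assemble a pore in the target membrane. Hepatocytes are known as the main source of these proteins in plasma, and regulators such as the C1 inhibitor (Serping1) and decay-accelerating factor (Cd55) restrain the cascade in fluid and on membranes. C3, C4b, C2, C6 and Serping1 are therefore transcripts that hepatocyte RNA could also carry, and 6 hepatocyte markers (Alb, Apoa1, Ttr, Serpina1a, Trf and Fabp1) were summed to be set beside them.

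The members lie on 5 chromosomes of the mouse genome (GRCm38, the mm10 build of the files), and each is a protein-coding gene with the same Ensembl identifier in the annotation and in the 10X tables. C2 (chromosome 17, 34862604 to 34898265, minus strand) and C4b (chromosome 17, 34728380 to 34743882, minus strand) lie 118721 bases apart in the major histocompatibility region, and C2 ends 85 bases from Cfb, the alternative pathway's counterpart of C2. C3 lies farther along chromosome 17 (57203970 to 57228136, minus strand). C6 (chromosome 15, 4727175 to 4814967, plus strand) and C7 (chromosome 15, 4988762 to 5063740, minus strand), which bind one after the other in the membrane pore, are neighbours 173794 bases apart. C1ra (chromosome 6, 124512405 to 124523443, plus strand) lies 6901 bases from C1s1, Serping1 is on chromosome 2 (84765387 to 84775444, minus strand) and Cd55 is on chromosome 1 (130439027 to 130462744, minus strand). C4b, C1ra and Cd55 each have a close copy nearby (C4a at 65209 bases, C1rb at 46850 bases and Cd55b at 16017 bases), so their counts are uncertain where reads of the copies could be shared.

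The promoters of C3, C7 and Cd55 are shown because these are the members that set fibroblasts apart from stellate cells in the values that follow. They are the 250 bases before the RefSeq start, 5′ to 3′ on the gene's strand, from the RefSeq promoter table of GRCm38.p6, which held 5 of the 8 members. Capitals mark CG dinucleotides, which are dense in the promoters known as CpG islands.

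C3 (chr17:57228137-57228386, minus strand): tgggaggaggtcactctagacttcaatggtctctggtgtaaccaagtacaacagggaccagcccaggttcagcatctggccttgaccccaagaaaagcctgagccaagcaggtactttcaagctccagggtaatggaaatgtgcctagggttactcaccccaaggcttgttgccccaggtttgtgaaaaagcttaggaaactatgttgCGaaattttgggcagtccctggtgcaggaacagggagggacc
C7 (chr15:5063774-5064023, minus strand): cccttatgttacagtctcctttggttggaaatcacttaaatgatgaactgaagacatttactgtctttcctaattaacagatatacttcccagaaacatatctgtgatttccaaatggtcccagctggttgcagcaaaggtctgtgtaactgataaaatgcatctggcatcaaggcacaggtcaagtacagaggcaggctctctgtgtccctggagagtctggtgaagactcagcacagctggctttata
Cd55 (chr1:130462745-130462994, minus strand): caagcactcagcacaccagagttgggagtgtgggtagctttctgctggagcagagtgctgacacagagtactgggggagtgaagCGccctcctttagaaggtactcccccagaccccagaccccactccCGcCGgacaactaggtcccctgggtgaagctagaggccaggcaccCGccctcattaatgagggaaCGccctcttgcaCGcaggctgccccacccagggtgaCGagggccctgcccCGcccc

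The C3 window held 1 CG dinucleotide and the C7 window held none, and 18.8% and 7.87% of the 32851 windows in the table had as few, where the median was 6. The Cd55 window held 8, a number that 43.0% of windows reached, and 64% of its bases were G or C against 52% for C3 and 43.2% for C7 (median 52.4% over all windows). The 3 fibroblast-high members thus had unlike promoters by this measure, which describes the letters and was not tied to any factor.

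Cells were clustered within each library and named from fixed marker genes. Protocol 1 held 3893 fibroblast-like (FB-like) cells in the uninjured library (67.9% of cells kept) and 2633 in the 6 week library (46.6%), with 1592 and 2926 vascular smooth muscle-like (VSMC-like) cells. Protocol 2 held 6463, 6558 and 4927 stellate-like (HSC-like) cells in the uninjured, 72 h and 6 week libraries, beside 219 FB-like cells at 72 h. Total UMIs per library ran from 25962957 to 86661230 and library pairs shared 33 to 74 cell barcodes. On the plates 2065 of 2292 wells were kept, with 253, 280 and 111 FB-like wells in uninjured, BDL and CCl4 mice, 356, 350 and 208 VSMC-like wells, and 312 HSC-like wells that all came from uninjured plate 6. Levels are CPM (UMIs of the gene per 1000000 UMIs, 10X) or RPM (reads per 1000000 reads, Smart-seq2), summed over the cells of a type. They are compared between samples for 1 gene only, and in such sums fewer expressing cells and less RNA per cell cannot be told apart.

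The 8 genes fell into 3 patterns over the cell types. In uninjured liver C3, C4b, C7, Serping1 and Cd55 were highest in FB-like cells, C2 and C6 were highest in HSC-like cells, and C1ra was alike in both and lower in VSMC-like cells. The name complement of fibroblasts therefore held for 5 of the 8 members in the 10X data. Because the types were named from the same cells, and because the study lists C3, C4b, C7 and Serping1 as fibroblast markers and C2 as a stellate marker from these samples, the differences between types are a description and have no test. FB-like and HSC-like cells also came from different digestions, which cannot be told apart from the types. The hepatocyte markers in uninjured HSC-like, FB-like and VSMC-like cells summed to 288, 137 and 15.3 CPM, the order that C2 also had. Transferrin (Trf) made up most of these sums, at 240, 111 and 7.43 CPM and with a UMI in 73.0% of HSC-like cells, and the other 5 markers together were at 47.8, 26.4 and 7.82 CPM. The part of hepatocyte RNA in the differences between types was not tested.

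C3, Cd55 and C7 carried the fibroblast pattern. C3 stood at 651 CPM in uninjured FB-like cells (95% Poisson interval 640 to 663), at 53.0 CPM in VSMC-like cells of the same library and at 2.64 CPM in HSC-like cells. A UMI of C3 was seen in 73.5% of FB-like cells and in 1.10% of HSC-like cells, whose median depth was greater (6763 against 4893 UMIs), and after thinning every cell to 2000 UMIs the shares were 56.1% and 0.425%. Cd55, which speeds the decay of the C3-splitting enzymes on a cell's own membrane, stood at 128 CPM in FB-like cells, at 4.50 in VSMC-like cells and at 0.0682 in HSC-like cells, where 3 UMIs were counted over 6463 cells. C7, the terminal component that anchors the growing pore in the membrane, stood at 95.6, 3.52 and 0.477 CPM in the same order. Serping1, the inhibitor of C1r and C1s, was seen in 99.2% of FB-like and 99.5% of HSC-like cells and stood at 2322 CPM in FB-like cells, at 1546 in HSC-like cells and at 539 in VSMC-like cells, so that it graded the types rather than marking 1 of them.

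C4b, the precursor of the C4 fragment that joins C2 in the C3-splitting enzyme, was at 166 CPM in FB-like cells (160 to 172), while HSC-like cells had 80.2 (77.6 to 82.9) and VSMC-like cells 14.7. C2 ran the other way, with 149 CPM in HSC-like cells (146 to 153), 43.5 CPM among FB-like cells (40.6 to 46.6) and 10.8 CPM among VSMC-like cells. C1ra, the protease that activates C1s, reached 354 CPM (349 to 360) in HSC-like cells beside 348 CPM (340 to 357) in FB-like cells, whose intervals overlapped, and 127 CPM in VSMC-like cells. C6, which joins the pore just before C7, was at 37.7 CPM in HSC-like cells with a UMI in 20.1% of them. In FB-like cells C6 was at 0.929 CPM, with a UMI in 0.462% of cells, and in 1592 VSMC-like cells no UMI was counted, which allows up to 0.587 CPM. C6 and C7, neighbours in the genome and in the pore, were thus high in different types. All intervals cover counting error only.

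**Figure D1:**
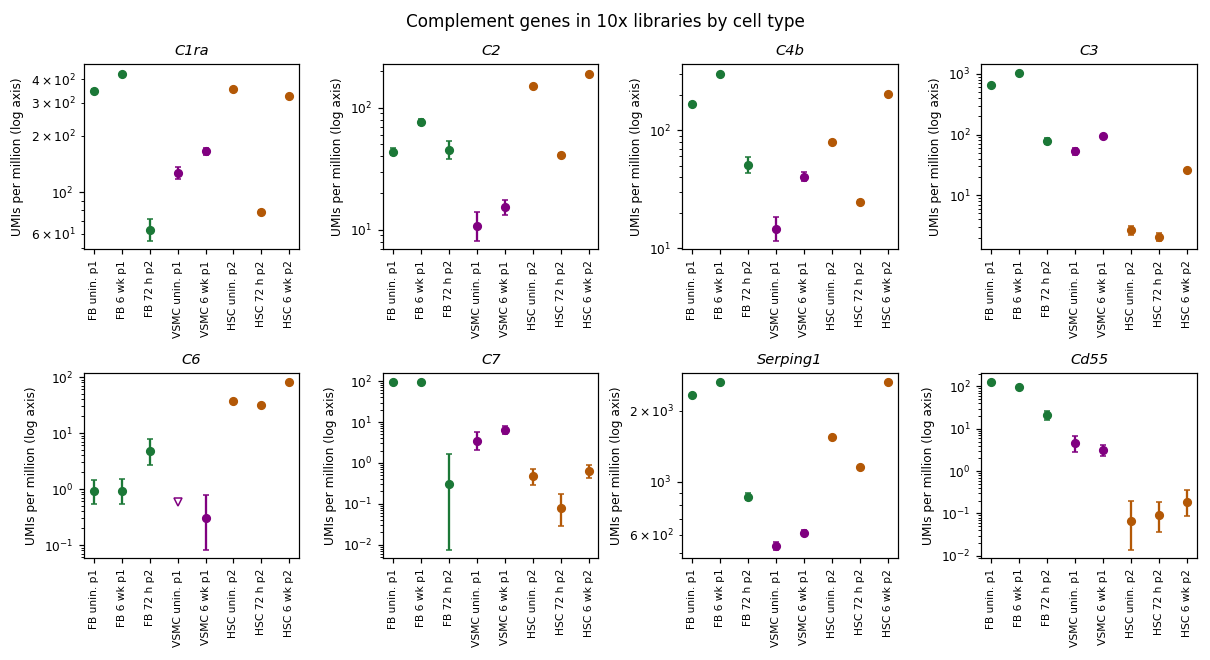
Level of each complement gene in CPM (log axis) by cell type and 10X library, with 95% Poisson intervals as bars and an open triangle at the floor of 3 UMIs where none was counted. C3 stands at 651 in uninjured FB-like cells against 2.64 in uninjured HSC-like cells, whereas C6 stands at 0.929 against 37.7.

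The plates also had fibroblasts above smooth muscle, with more reads per cell and with portions to show the spread. C3 was at 5190 ± 1892 RPM (SD, n = 6; lowest 2985, median 4913, highest 8707) in FB-like wells of uninjured portions and at 7.49 ± 5.96 (n = 6) in VSMC-like wells, where the highest portion was at 17.0. C7 was at 1537 ± 998 RPM (n = 6) in the FB-like wells and at 0.980 ± 0.50 in the VSMC-like wells. For C4b these were 1087 ± 483 and 5.12 ± 4.90. The low VSMC-like values lay near the level of the 12 wells assigned to no mouse, where C3 had 56 reads (4.67 per well) and C7 had 13 (1.08 per well): 5 of 6 uninjured VSMC-like portions were at or under that number of reads per well for C3 and 6 of 6 for C7. Serping1 and C1ra were unlike these, since VSMC-like wells held 15.6% and 35.1% of their FB-like level on the plates (986 ± 153 against 6316 ± 705 RPM for Serping1, n = 6 each) and 23.2% and 36.4% in the uninjured 10X library. In that 10X library VSMC-like cells held 8.14% of the FB-like level of C3, 3.68% of that of C7 and 6.39% of that of 8 fibroblast markers summed, while on the plates these were 0.144%, 0.0638% and 2.80%. The hepatocyte markers summed to 552 to 1049 RPM in uninjured FB-like portions and to 1.38 to 76.2 RPM in VSMC-like ones. Trf alone was at 538 to 1042 and 0.586 to 15.1 RPM there, and the other 5 markers were at 0.0454 to 70.6 and 0.796 to 61.1 RPM, so that Trf separated the types and the sum of the others did not. Their part in the differences was not tested.

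Plate 6 held fibroblast and stellate wells side by side, but its FB-like wells came from 1 mouse label and its HSC-like wells from another 2, by the other digestion, so type, mouse and digestion cannot be told apart on it. C3 was at 5141 RPM in its FB-like portion (18 wells) and at 0.118 and 29.8 RPM in its 2 HSC-like portions (154 and 158 wells). C7 was at 3332 RPM against 2.06 and 12.8, and C4b was at 1851 against 125 and 290. Serping1 was at 6710 RPM against 2966 and 3794, and Cd55 was at 9.10 against 0 and 0.0545. Here the fibroblast side was the higher for all 5 of these genes. C2 (537 against 435 and 592 RPM) lay between the stellate portions, C1ra (431 against 352 and 368) lay above both by less than 1.5-fold, and C6 was not counted in the FB-like wells while the stellate portions had 91.1 and 149 RPM. On these plates C2 therefore did not separate the types as it did in the 10X libraries, and VSMC-like wells held only 3.10% of its FB-like level. The hepatocyte markers summed to 1049 RPM in this FB-like portion and to 577 and 762 RPM in the stellate ones.

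**Figure D2:**
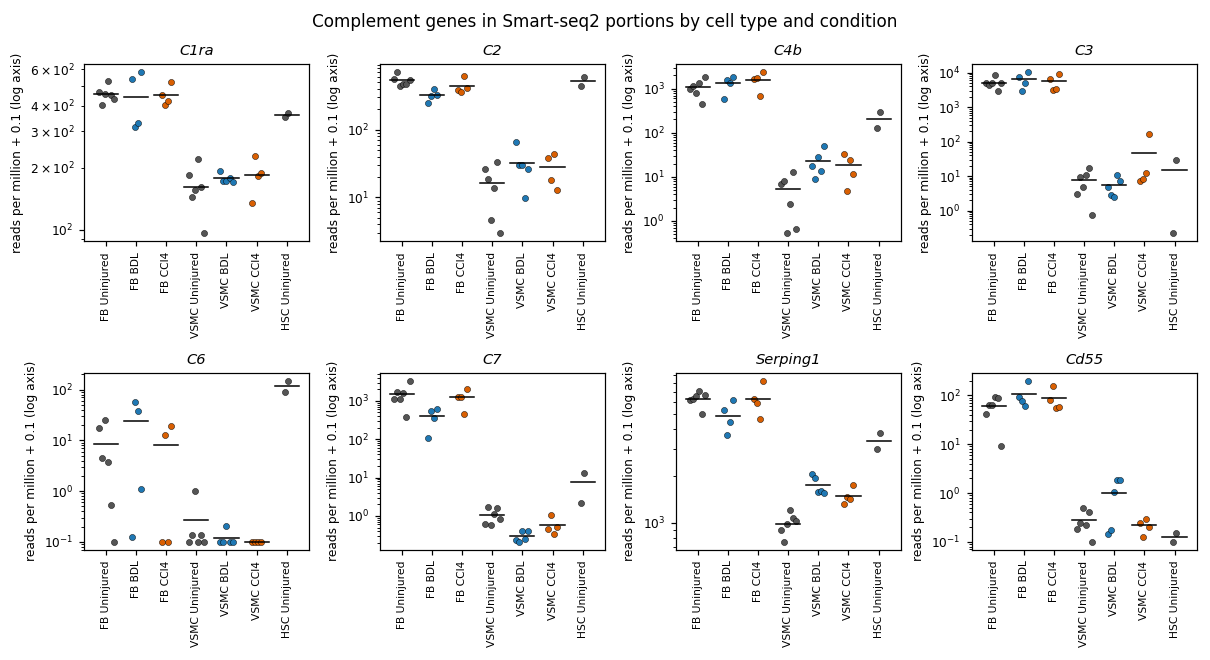
Level of each complement gene in Smart-seq2 wells in RPM plus 0.1 (log axis), by cell type and condition, with 1 point per portion and a line at the mean. C3, C4b and C7 of FB-like portions stand above all VSMC-like portions, and Serping1 of VSMC-like portions is at 751 to 1199 in uninjured mice and at 1311 or more in all injured ones.

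Within the FB-like cells the same genes varied between clusters, and they did not vary together. In the uninjured protocol 1 library 6 FB-like clusters were found, and the ratio of the highest to the lowest cluster was 35.7 for Cd55, 18.9 for C2, 12.2 for C4b, 5.38 for C7 and 4.57 for C3, but 1.34 for Serping1 and 1.32 for C1ra. Cd55 was highest in the 324 cells led by Ly6c1 and Pi16 (511 CPM), and in these cells C4b (32.6 CPM), C7 (28.1 CPM) and C2 (5.01 CPM) were at their lowest. The 1088 cells led by Sfrp1 and Gas6 were the reverse, with C4b at 397 CPM, C7 at 151 and C2 at 85.1 beside Cd55 at 50.01. C3 was highest in the 1008 cells led by Cxcl13 and Penk (903 CPM) and in the Sfrp1-led cells (846 CPM), and it was lowest in the 143 cells led by Wif1 and Thy1 (197 CPM), where Cd55 was also lowest (14.3 CPM). These clusters were built from variable genes of the same cells, with the complement genes left out, and their differences are a description.

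The FB-like cells of the 6 week library held like clusters, and also 260 cells led by Angptl7 and Col6a5. In the uninjured library 175 cells led by Ptn, Dlk1 and Angptl7 stayed unnamed, with C4b at 540 CPM and C3 at 836 CPM. They are absent from the uninjured FB-like levels and spreads above and from the FB-like folds below. The 380 cells led by Ly6c1 and Pi16 had the highest Cd55 (267 CPM) with C4b at 146 CPM and the lowest C2 (21.3 CPM), and the 466 cells led by Ptn and F3 had the highest C4b (464 CPM) and C2 (120 CPM) with the lowest Cd55 (36.0 CPM). C3 was highest, at 1365 CPM, in the 850 cells led by Mmp3 and Penk. The spread over clusters was narrower for Cd55 (7.43-fold), C2 (5.62-fold), C7 (3.15-fold) and C3 (2.82-fold) than in the uninjured library, and for C4b it was 10.1-fold. On the plates the FB-like cluster led by Has1, Scara5, Mmp3 and Penk likewise had the highest C3 (13447 RPM) and the one led by Wif1 the lowest (1767 RPM).

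**Figure D3:**
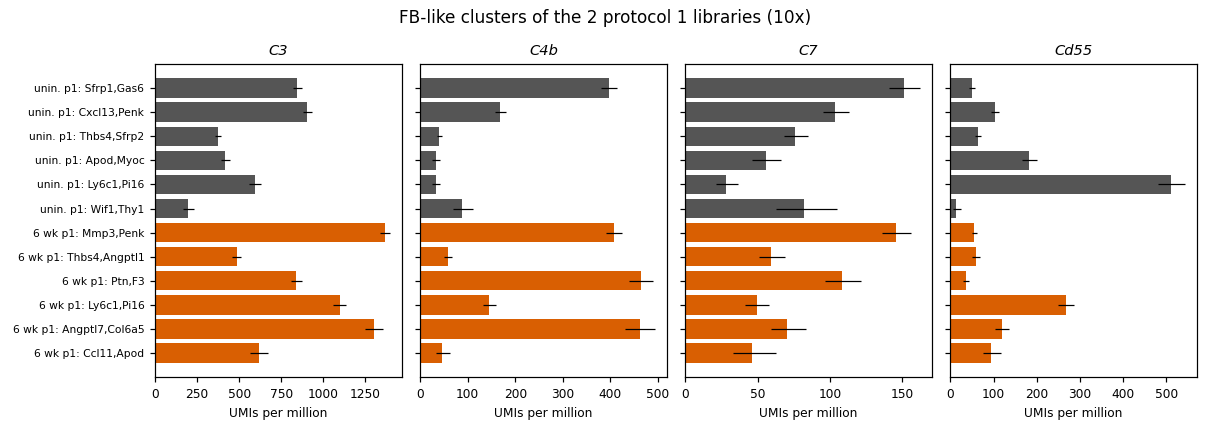
C3, C4b, C7 and Cd55 in CPM in each FB-like cluster of the uninjured (grey) and 6 week CCl4 (orange) protocol 1 libraries, with clusters named by their 2 leading genes and bars for 95% Poisson intervals. Cd55 peaks in the Ly6c1 and Pi16 clusters of both libraries (511 and 267), where C4b is at 32.6 and 146.

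VSMC-like cells were not uniform either. C2 was at 105 CPM in the 106 uninjured cells led by Tnnt2 and Vtn and at 1.33 to 5.83 CPM in the other VSMC-like clusters, and in the 6 week library it was at 161 CPM in the 143 cells led by Tnnt2, Actg2 and Npnt and at 2.88 to 14.0 in the others. The same cells had the highest Serping1 among VSMC-like clusters (1028 and 1309 CPM). On the plates the VSMC-like cluster led by Actc1, Npnt and Tnnt2 had C2 at 100 RPM and C4b at 94.8 RPM, against 2.3 to 67.3 and 5.7 to 11.8 RPM in the other VSMC-like clusters. C2 of smooth muscle cells was thus highest in a minority of them in both methods. The same clusters stood apart in fibroblast markers, which summed to 2900 CPM (547 and 550 in the other clusters), 3151 CPM (704 to 782) and, on the plates, 3556 RPM (23.3 to 135). Hepatocyte markers were at 43.5 CPM (12.6 and 13.4 in the others), 240 CPM (15.4 to 37.6) and 24.5 RPM (9.06 to 35.0). The part of either in the high C2 was not tested.

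The injury comparisons asked whether complement expression of each cell type changed with CCl4 or BDL. In the 10X data there was 1 library per condition, so a gene was called when its CPM differed at least 2-fold with at least 20 CPM in the higher library, with no test. After 6 weeks of CCl4 the FB-like cells had 1.80-fold the uninjured level of C4b (interval 1.72 to 1.88, 166 to 300 CPM), 1.75-fold that of C2 (43.5 to 76.1 CPM) and 1.59-fold that of C3 (1.56 to 1.63, 651 to 1037 CPM). C1ra was 1.22-fold and Serping1 1.13-fold, C7 was 0.994-fold, and Cd55 was 0.760-fold (0.714 to 0.809, 128 to 97.3 CPM). None of the 7 members with enough UMIs was called, beside 1.88% of the 6007 genes tested, and C6 was under the minimum. Of the complement list of 50 genes 14 could be tested in FB-like cells, none was called, 11 had a fold above 1 and the median was 1.36 beside 0.986 over all genes, with Cfb at 1.99-fold. The summed hepatocyte markers were at 137 CPM in the uninjured and 271 CPM in the 6 week FB-like cells (Trf 111 and 250, the other 5 together 26.4 and 21.2), and smooth muscle markers at 551 and 1512 CPM. The part of either in these folds was not tested.

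VSMC-like cells of the same libraries had C4b at 14.7 CPM uninjured and 40.6 CPM at 6 weeks, which is 2.77-fold (2.17 to 3.57) and was the single member called of 4 tested, beside 2.54% of 5832 genes higher. C3 was 1.76-fold (53.0 to 93.4 CPM), C1ra 1.30-fold and Serping1 1.14-fold (539 to 612 CPM). Hepatocyte markers were at 15.3 CPM in the uninjured and 39.8 CPM in the 6 week VSMC-like cells (Trf 7.43 and 23.7, the other 5 together 7.82 and 16.1), and fibroblast markers at 728 and 871 CPM. Their part in these folds was not tested. The C3 level of VSMC-like cells was 8.14% of the FB-like one in the uninjured library and 9.005% in the 6 week one. Of 11 complement genes tested 3 were called, all higher, among them C4b and Clu (2.37-fold), which encodes clusterin, an inhibitor of pore assembly.

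FB-like cells at 72 h had no counterpart in the uninjured protocol 2 library, and so no fold was formed. The 219 cells, led by Ltbp2 and Figf, had C3 at 77.96 CPM (68.8 to 88.0), Cd55 at 20.7 CPM (16.1 to 26.2), Serping1 at 867 CPM and 1 UMI of C7. Their fibroblast markers summed to 2185 CPM and their smooth muscle markers to 5237 CPM, against 11395 and 551 CPM in uninjured FB-like cells of protocol 1, so the label fibroblast was weak for them. Another 24 cells of the 6 week protocol 2 library, led by Saa3 and Lcn2, had C3 at 2688 CPM but were too few to be used.

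HSC-like cells showed the largest shifts in the 10X data, and C4b was lower at 72 h and higher at 6 weeks. At 72 h, C1ra was 4.53-fold lower (354 to 78.1 CPM), C2 3.62-fold lower (149 to 41.2 CPM) and C4b 3.25-fold lower (80.2 to 24.7 CPM), while C6 (37.7 to 31.9 CPM) and Serping1 (1546 to 1156 CPM) were 0.847-fold and 0.748-fold. Of 5 members tested 3 were called lower and none higher, beside 9.19% of 6215 genes lower and 6.31% higher, and the median fold of all genes was 0.864. Of 14 complement genes tested 11 were called lower and none higher, with a median of 0.284. They included C1s1 (0.291-fold), the partner protease of C1ra, the lectin pathway genes Fcna (0.0589-fold), Colec10 (0.394-fold) and Colec11 (0.359-fold), and Cfb (0.153-fold), Vtn (0.195-fold) and Clu (0.187-fold). The summed hepatocyte markers were 288 CPM in uninjured and 62.3 CPM in 72 h HSC-like cells, with at least 3 of the 6 markers seen in 238 and 41 cells. Stellate markers were at 21062 CPM in uninjured and 3925 CPM in 72 h cells, fibroblast markers were at 27.7 and 277 CPM and smooth muscle markers at 528 and 1880 CPM. The part of these shifts in the folds was not tested. The median depth was 6763 UMIs per uninjured HSC-like cell and 11152.5 at 72 h.

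At 6 weeks, 3 of 6 members tested in HSC-like cells were called, all higher, beside 3.03% of 6006 genes. C3 was 9.83-fold higher (8.12 to 12.0) but from a low base, 2.64 to 25.9 CPM, with a UMI in 1.10% and 12.9% of cells. C4b was 2.53-fold higher (2.43 to 2.63, 80.2 to 203 CPM) and C6 was 2.17-fold higher (2.05 to 2.30, 37.7 to 81.9 CPM). Serping1 was 1.71-fold (1546 to 2645 CPM), C2 1.27-fold and C1ra 0.917-fold (354 to 324 CPM), beside a median of 0.853 over all genes. Among 16 complement genes tested the only other call was Fcna, at 0.238-fold (1.78% of all genes were lower). Of these 16 genes, 7 had a fold above 1 and 9 a fold below 1. Their median was 0.876, close to the 0.853 over all genes. The hepatocyte markers summed to 168 CPM here, below the uninjured 288 CPM. Fibroblast markers, by contrast, summed to 27.7 CPM in uninjured and 569 CPM in 6 week HSC-like cells, and stellate markers to 21062 and 9523 CPM, and their part in the C3 and C4b folds was not tested.

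C3 of the 6 week HSC-like cells was highest by far in 1 cluster. The 395 cells led by Spidr, Fam180a and Alcam had C3 at 182 CPM, C4b at 582 CPM and C6 at 124 CPM, whereas the other HSC-like clusters had C3 at 6.08 to 22.2 CPM and C4b at 86.2 to 240 CPM. These cells also stood apart in fibroblast markers, at 2883 CPM against 181 to 750 CPM in the other 8 clusters, in stellate markers, at 3867 against 6564 to 13802 CPM, and in Trf, at 266 against 52.7 to 160 CPM. The part of these in the high C3 was not tested. Without these cells the C3 fold was 4.91 and the level fell under the 20 CPM needed for a call. At 72 h the clusters differed most in C6, which was at 117 CPM in the cells led by Alpl and Mest (where C6 is itself among the leading genes), 99.4 in those led by Cdc20 and Cenpa and 82.4 in the 579 cells led by Abhd2, against 3.80 to 20.1 CPM in the other 6. Serping1 was also highest in the Alpl-led cells (1956 CPM) and lowest in the cells led by Timp1 and Ankrd1 (652 CPM).

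**Figure D4:**
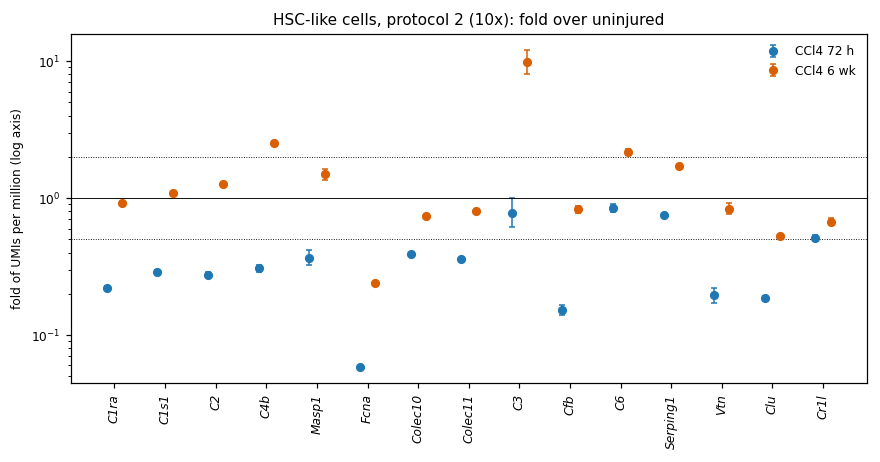
Fold of CPM over uninjured (log axis) in HSC-like cells of protocol 2 at 72 h (blue) and 6 weeks (orange) of CCl4 for complement genes with at least 20 CPM, with counting intervals as bars and dotted lines at 2-fold either way. C1ra, C2 and C4b lie at 0.221, 0.276 and 0.308 at 72 h, and C3, C4b and C6 lie at 9.83, 2.53 and 2.17 at 6 weeks.

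On the plates the portions allowed a test, edgeR's quasi-likelihood test on read sums per type and portion with Benjamini-Hochberg adjustment over all genes. In VSMC-like wells Serping1 was at 751 to 1199 RPM in the 6 uninjured portions (median 999) and at 2055, 1930, 1567, 1602 and 1562 RPM in the 5 BDL portions. The difference was 0.88 ± 0.13 (log2, SE), or 1.83-fold, with an adjusted p of 0.00465. Every BDL portion was above the uninjured portion of its own plate, by 1.30 to 2.29-fold. Such ratios are not independent here or below, because portions on the same plate share its uninjured portion. BDL replicates 1 and 2 lay on plate 1 and 3 and 4 on plate 2. CCl4 replicates 1 and 2 lay on plate 3 and 3 and 4 on plate 5. Serping1 was the single call among the 6 members and the 24 complement genes tested, beside 0.245% of 13081 genes called higher. The call was lost when the plate was a term of the model (0.99 on the log2 scale, adjusted p = 0.132) and when wells were summed per mouse label over plates (0.81, adjusted p = 0.932). Sums per mouse label leave fewer units to test, because the uninjured wells of plates 1 to 5 carry the same label.

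In CCl4 mice Serping1 of VSMC-like wells was at 1311, 1466, 1413 and 1753 RPM, which was 1.32 to 1.64-fold the uninjured portion of the same plate. The difference was 0.61 ± 0.14 (log2) with an adjusted p of 0.798 in edgeR and 0.0138 in DESeq2. No gene of the 13081 tested was called by edgeR in this contrast (0%), whereas DESeq2 called 57. In edgeR 611 genes had an unadjusted p under 0.05, a smaller share than the 0.05 that arises with no change in any gene. C4b was at 5.12 ± 4.90 RPM in uninjured, 23.2 ± 16.3 in BDL and 18.2 ± 12.9 in CCl4 VSMC-like portions (adjusted p = 0.314 and 1). C3 of VSMC-like wells was at 7.11, 8.13 and 12.1 RPM in 3 CCl4 portions and at 163 RPM in the fourth, which held 23 wells, and its difference from uninjured missed the threshold (2.69 on the log2 scale, adjusted p = 0.964). Between BDL and CCl4 no member was called in VSMC-like or FB-like wells, beside 0.00764% and 0.0227% of genes.

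In FB-like wells no member was called after BDL, beside 0.318% of 13206 genes. C7 had the largest difference: it was at 374 to 3332 RPM in uninjured portions (median 1347) and at 110, 540, 366 and 625 RPM in BDL portions, which is −1.90 ± 0.58 on the log2 scale (adjusted p = 0.273 in edgeR and 0.0204 in DESeq2). Each of the 4 BDL portions was below the uninjured portion of its plate, at 0.0977 to 0.480 of it. Within the commonest FB-like cluster, led by Fmod and F3, C7 was at 24.6, 507, 368 and 347 RPM in the BDL portions and at 613 to 3679 RPM in the 6 uninjured ones. C2 was at 436 to 702 RPM in uninjured portions and at 243, 309, 399 and 328 RPM in BDL. It was lower on each plate, with a difference of −0.70 ± 0.22 (adjusted p = 0.281). C3 (0.33 ± 0.38), C4b (0.31 ± 0.40), Cd55 (0.88 ± 0.49), C1ra (−0.03 ± 0.20) and Serping1 (−0.34 ± 0.21) had adjusted p of 0.822 or more. The cholangiocyte markers summed to 403 to 2052 RPM in the BDL FB-like portions and to 10.2 to 25.3 in the uninjured ones, and their part in these differences was not tested.

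The estimates for Serping1 after BDL had opposite signs in the types, with lower FB-like values (5359, 3694, 4441 and 6156 RPM against 6316 ± 705 uninjured) and higher VSMC-like values. The difference between the effects was −1.25 ± 0.23 on the log2 scale in the portions that held both types, with an adjusted p of 0.130, so the test across all genes did not separate them (5 of 14459 genes were called, 0.0346%).

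After 6 weeks of CCl4 no member and no other gene was called in FB-like wells by edgeR (0% of 13206 genes), and DESeq2 called 48. In edgeR 606 genes had an unadjusted p under 0.05, again a smaller share than 0.05. C4b was at 1630, 1741, 697 and 2368 RPM against 445 to 1851 in uninjured portions, above the uninjured portion of the same plate in 4 of 4 (1.57 to 5.32-fold), with a difference of 0.56 ± 0.40 (adjusted p = 1). C3 was at 6729, 3203, 3404 and 9036 RPM (0.13 ± 0.38) and C7 at 1286, 1242, 452 and 1998 RPM (−0.31 ± 0.54), and both overlapped the uninjured portions. Within plates C7 was above the uninjured portion in 4 of 4 (1.14 to 5.34-fold), against the sign of its estimate. C3 was above it in 3 of 4 (0.649 to 3.03-fold). The within-plate ratios of C4b, C7 and C3 share the uninjured portions of plates 3 and 5. C4b and C3 also lay above 1 in the FB-like 10X folds, where C7 was at 0.994. The size of what could be seen was limited, since in simulated counts for the BDL contrast 21% of genes changed 4-fold and 2% of genes changed 2-fold were called in FB-like portions, and 47% and 7% in VSMC-like portions.

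One cluster of injured wells lay outside these fits because its naming was not clear. Its 168 wells, led by Saa3, Hp, Cxcl5 and Lcn2, scored higher for fibroblast than for stellate or smooth muscle markers, but higher still for hepatocyte, cholangiocyte and leucocyte markers, and it stayed unnamed because the cholangiocyte marker Spp1 was among the leading genes. The score takes each marker relative to its highest cluster, so it does not compare levels between marker lists. Fibroblast markers summed to 6689 RPM in it (7420 to 14589 in the 4 FB-like clusters). Hepatocyte markers summed to 5539 RPM (358 to 1044), of which Trf made 4907 and albumin 434. Cholangiocyte markers summed to 3834 RPM (7.17 to 775) and leucocyte markers to 150 RPM (6.19 to 85.0). Their part in the values that follow was not tested. It held 144 CCl4, 22 BDL and 2 uninjured wells, which is 56.5%, 7.28% and 0.784% of FB-like wells and these wells together. In its 4 CCl4 portions C3 was at 17562, 23699, 13984 and 16974 RPM and Cd55 at 363, 402, 552 and 390 RPM, above every FB-like CCl4 portion, whereas C7 was at 42.5, 12.5, 34.7 and 13.0 RPM, below every one. C4b was at 740, 1135, 910 and 710 RPM, within the FB-like range. When these wells were counted as FB-like, a choice made after seeing the data, Cd55 was higher in CCl4 by 2.16 on the log2 scale (adjusted p = 0.0329 in edgeR) and C3 by 1.14 (adjusted p = 0.118), where the fit without them had 0.56 and 0.13. A further 27 unnamed wells, led by the mesothelial genes Msln and Upk3b, had C3 at 37641 RPM, Cd55 at 732 and C7 at 0.7 RPM.

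**Figure D5:**
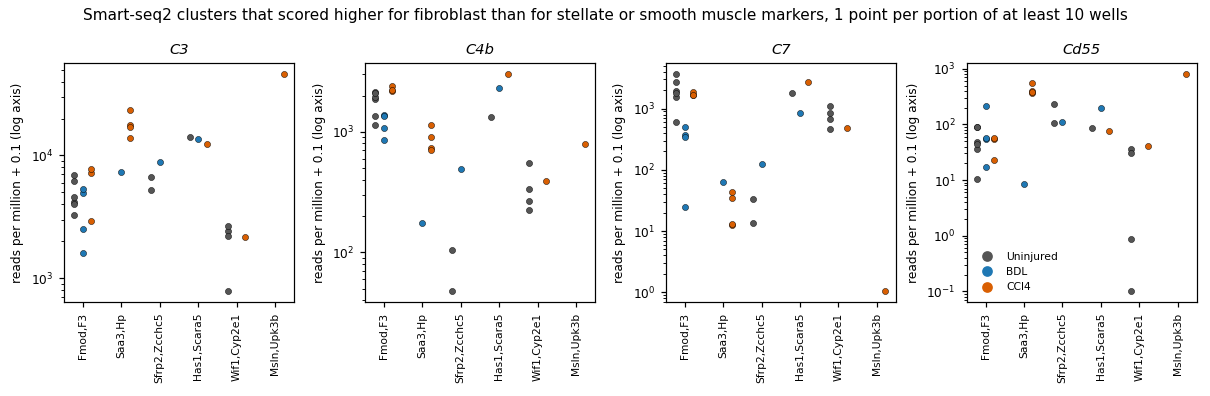
C3, C4b, C7 and Cd55 in RPM plus 0.1 (log axis) in the Smart-seq2 clusters that scored higher for fibroblast than for stellate or smooth muscle markers, 2 of which (led by Saa3 and by Msln) scored higher still for other cell types, with 1 point per portion of at least 10 wells, coloured by condition. The CCl4 portions of the Saa3-led cluster stand at 13984 to 23699 for C3 and at 12.5 to 42.5 for C7.

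The genes whose pattern was most like each member were taken over 31 Smart-seq2 sums of a type in a portion, by Pearson correlation of log2(RPM + 1) among 7555 genes. The points share plates and depth, so the values are descriptions. Timp2 (0.966), Igfbp6 (0.963) and Lbp (0.963) were most like C3, Sult5a1 (0.969) was most like C7, and Cd302 (0.956) was most like C4b. Cd55 was closest to Pi16 and Pdpn (0.976 each), of which Pi16 also led the 10X clusters with the highest Cd55. Serping1 was most like C1ra (0.941), whose product it inhibits. C2 was closest to Cp (0.954), and C6 was too low for the comparison.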

How the data were processed

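For the droplet libraries the authors aligned reads to mm10 (Ensembl 84 genes) with Cell Ranger 2.1.0 and deposited the UMI counts of each gene in each cell. For the plates the authors aligned reads to mm10 with eGFP and spike-in sequences by STAR, counted reads per RefSeq gene and deposited whole read counts per well. Both count tables hold no normalization, and each sample has its own file.

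Cells with under 300 genes or over 30% mitochondrial UMIs were left out, and so were genes seen in under 3 cells. Wells were left out as in the study's methods, by a limit of 3 median absolute deviations from the median (low reads or genes, or a high spike-in share). Counts were scaled and logged, and 2000 variable genes outside the complement list gave 10 components. Cells were clustered by the Leiden method (30 neighbours, resolution 0.8, scanpy 1.11.5, leidenalg 0.10.2). Clusters were named from fixed marker genes by a scoring rule set after the clusters had been looked at. Doublets were called per library (238 to 427 cells) but kept, and leaving them out was an alternative. Median UMIs per kept cell were 4299 to 11343.5 per library, and median reads per well were 415615.5 to 462244 per condition.

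In 10X data, UMIs of a type were summed per library and given as CPM with exact Poisson intervals and with shares of cells with exact binomial intervals (95%), and a count of 0 was bounded at 3 UMIs. With 1 library per condition there was no test, and a fold of at least 2 with at least 20 CPM in the higher library was called. On the plates, reads were summed per type and portion (at least 10 wells, which left out BDL replicate 4 for FB-like wells), filtered by expression and fitted with edgeR 4.0.16 (quasi-likelihood, TMM, R 4.3.3) over all portions of a type, with adjusted p under 0.05 as the call. The type by condition interaction was fitted with the portion as a block. DESeq2 1.42.0, a plate term, sums per mouse label, other filters, other names of clusters and leaving out each portion were alternatives. The split of the hepatocyte markers into Trf and the other 5 was made after the data were seen. The edgeR script was tested on simulated data. Named genes were the 8 members and the other complement genes called in a comparison. Other steps used Python 3.11.15 with numpy 2.4.6, pandas 2.3.3 and scipy 1.17.1, and genes were placed by the GRCm38 annotation.

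The counts over the complement list cover all its genes, but values of some genes outside the members are not reported here. The members and lists were chosen with earlier results of these data known.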

Additional observations from a re-analysis of the deposited data

Results flagged for a closer look

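C3 of VSMC-like wells in CCl4 replicate 4 stood apart from the other portions of its group, at 163 RPM beside 7.11, 8.13 and 12.1. This portion lay on plate 5 and held 23 wells. It was the single value so far from its neighbours in 41 groups of a member, a type and a condition that were examined, and chance gives about 1 such value in 20 groups. Without it the estimate for C3 in VSMC-like wells after CCl4 was 0.32 on the log2 scale, against 2.69 with it.

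The 12 wells assigned to no mouse, which no comparison used and which held 341 to 16575 reads each (median 6624), had reads of 6 of the 8 members. C3 had 56 reads in 10 of these wells, C4b 19 in 6, C7 13 in 4, Serping1 98 in 11, C1ra 8 in 4 and C2 7 in 5, and C6 and Cd55 had none. VSMC-like BDL portions had at most 4 reads of C3 per well and were all at or under the 4.67 reads per well of these control wells, and all 15 VSMC-like portions were at or under them for C7. FB-like portions had 1167 to 4405 reads of C3 per well.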

How the results depend on the processing

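The number of genes called on the plates depended on the method more than the members' values did. For SS2 FB-like BDL vs uninjured (42 genes), DESeq2 called 187, a plate block 0, sums per mouse label over plates 2, and counting the Saa3-led wells as FB-like 76. For SS2 FB-like CCl4 vs uninjured (0 genes), DESeq2 called 48, naming each well by its own markers 101 and the Saa3-led wells as FB-like 90. For SS2 FB-like BDL vs CCl4 (3 genes) these were DESeq2 135, plate block 0, mouse labels 0, own markers 0 and Saa3-led wells 1. For SS2 VSMC-like BDL vs uninjured (50 genes) DESeq2 called 257, the plate block 1 and mouse labels 0, for SS2 VSMC-like CCl4 vs uninjured DESeq2 called 57, and for SS2 VSMC-like BDL vs CCl4 (1 gene) DESeq2 called 66, the plate block 0 and mouse labels 0. For SS2 BDL effect FB-like minus VSMC-like (5 genes) no filter on low counts gave 3, a well filter on log10 values 2, own markers 8 and Saa3-led wells 8, and for SS2 CCl4 effect FB-like minus VSMC-like (0 genes) own markers gave 3 and Saa3-led wells 5. With 1 portion left out at a time the counts ranged from 11 to 38, 0 to 0, 0 to 6, 14 to 62, 0 to 0, 1 to 1, 0 to 7 and 0 to 0 in the order above. The portion block of the interaction fits was part of the design, and the plate was the block in the alternative, because replicate numbers only name portions. No paired analysis was possible by replicate number because these numbers tie no samples across conditions. Portions that share a plate were compared in the plate block and in within-plate ratios.

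Of the members, 4 estimates changed sign under other names of wells. With wells named by their own markers, C7 was 0.73 in SS2 VSMC-like BDL vs uninjured: C7 and 1.76 in SS2 VSMC-like BDL vs CCl4: C7, and the C3 value of SS2 BDL effect FB-like minus VSMC-like: C3 was −0.83. SS2 CCl4 effect FB-like minus VSMC-like: C7 was −0.13 by own markers and −0.22 with the Saa3-led wells. Without 1 portion, SS2 FB-like CCl4 vs uninjured: C3 ranged from −0.24 (without CCl4 replicate 4) to 0.35, and SS2 BDL effect FB-like minus VSMC-like: Cd55 from −1.26 to 0.28. With own markers C3 (1.17, adjusted p = 0.0440) and Cd55 (2.24, adjusted p = 0.0275) of SS2 FB-like CCl4 vs uninjured passed in edgeR, as did SS2 BDL effect FB-like minus VSMC-like: Serping1 with own markers (adjusted p = 0.0238), with the Saa3-led wells (0.0216) and without BDL replicate 5 (0.0452). Serping1 of VSMC-like wells after BDL kept an adjusted p of 0.00289 to 0.0245 with any 1 portion left out. The alternatives with the Saa3-led wells and without the Spidr-led cells were chosen after seeing the data, and the cause of these changes was not tested. In the uninjured 10X libraries 5 members were highest in FB-like cells under every alternative. Of 7 calls in 10X data 1 (C3 of HSC-like cells at 6 weeks) was lost, with folds of 4.91 to 6.33. It was lost when cells were named by their own markers, when all barcodes were kept and without the Spidr-led cells.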
